A study of Arabidopsis thaliana with 6 samples.

Results

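Callose synthases, called glucan synthase-like (GSL) proteins in Arabidopsis, were followed here as a gene family through the root transcriptome under aluminium (Al) stress. The members were the 10 loci GSL1 to GSL8, GSL10 and GSL12, picked by their locus IDs out of a deposited table of 24379 genes. Root RNA was sequenced from 7-day-old WT Arabidopsis thaliana seedlings grown in hydroponic culture, in 3 control samples and 3 samples treated with Al. According to the methods of the study, the Al treatment was 25 µM AlCl3 for 3 h, and tissue of about 0.5 cm from the root tip was taken. The labels name the tissue only as roots, give both groups the same genotype and age, and do not say whether the samples came from separate cultures, so p-values measure the spread between these samples alone. The unit of expression is FPKM, which scales the fragments counted for a gene to transcript length and to the mapped fragments of its library.

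Callose is a β-1,3-glucan that the cell can lay down quickly and remove again. It is made from UDP-glucose by very large membrane proteins of the plasma membrane and is found at plasmodesmata, at the cell plate of dividing cells, in sieve plates, in the walls around developing pollen, and at wounds and sites of fungal attack. Callose deposition in the root tip is a long-known response to Al and is often used as a measure of Al injury.

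The libraries held an estimated 21700000 to 21900000 fragments each, as read off the smallest steps between FPKM values. ALMT1, the malate transporter gene that Al induces in roots, was at 0.567 ± 0.142 FPKM in the control samples and at 15.4 ± 2.20 FPKM after Al (SD, n = 3 each), which separates the groups as labelled. Of 5 tested root apex markers, 2 were called lower and 3 were not called, against 38.5% called lower over all tested genes. PLT1 went from 8.75 to 4.40 FPKM and PLT2 from 4.54 to 2.96 FPKM, SHR was at 19.55 to 22.48 FPKM and SCR at 19.36 to 21.85 FPKM over all samples, and WOX5, at most at 1 FPKM, was not tested. Summed over 5 photosynthesis genes, expression reached at most 10.5 FPKM in any sample. These are bulk samples, in which fewer cells of a type and less RNA per cell cannot be told apart.

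All 10 genes are long, with transcripts of 6041 to 6993 bases encoding 1768 to 1976 amino acids in TAIR10.1. Their starts and ends in the deposited table equal those of TAIR10.1. GSL1 (AT4G04970, chr4:2536925-2543273, plus strand) and GSL5 (AT4G03550, chr4:1573266-1579820, plus strand) stand apart in gene structure, with 4 and 5 exons, whereas the other 8 members have 41 to 50 exons. By global alignment of the encoded proteins, the closest pair was GSL3 (AT2G31960, chr2:13588522-13600430, plus strand) and GSL6 (AT1G05570, chr1:1647575-1659611, minus strand), with 92.4% identical residues. GSL12 shared 77.9% with GSL3, GSL1 shared 65.9% with GSL5, and GSL8 shared 63.0% with GSL10. Over all pairs of callose synthases, at most 0.227% of the 50-base stretches of a gene's longest transcript were found in any annotated transcript of the other. The longest stretch that the coding sequences of GSL3 and GSL6 have in common is 50 bases, which begins at base 2176 of both and is shown for this reason.
GSL3 and GSL6, shared coding stretch: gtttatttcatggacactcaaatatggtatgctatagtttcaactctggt

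The 250 bases before the annotated start are shown for 4 members, as GSL5 was the only one to rise, GSL6 fell most, GSL1 is the closest relative of GSL5, and GSL10 was not called. Capitals mark the letters TTGAC (the core of the W box bound by WRKY factors), CGCGT (the core of the site of the calmodulin-binding CAMTA factors), AACGG (the core of the mitosis-specific activator site) and CACGTG (the G box), each searched on both strands, with overlapping matches counted.
GSL5, chr4:1573016-1573265, plus strand: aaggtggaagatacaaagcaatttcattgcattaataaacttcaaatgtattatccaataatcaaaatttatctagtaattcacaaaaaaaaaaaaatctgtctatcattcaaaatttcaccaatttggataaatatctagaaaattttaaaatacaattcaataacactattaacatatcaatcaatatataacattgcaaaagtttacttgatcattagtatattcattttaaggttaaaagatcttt
GSL6, chr1:1659612-1659861, minus strand: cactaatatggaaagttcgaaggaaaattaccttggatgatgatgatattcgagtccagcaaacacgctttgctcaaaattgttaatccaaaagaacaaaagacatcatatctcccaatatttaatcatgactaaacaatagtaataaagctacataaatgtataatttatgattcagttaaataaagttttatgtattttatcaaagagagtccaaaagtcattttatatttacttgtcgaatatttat
GSL1, chr4:2536675-2536924, plus strand: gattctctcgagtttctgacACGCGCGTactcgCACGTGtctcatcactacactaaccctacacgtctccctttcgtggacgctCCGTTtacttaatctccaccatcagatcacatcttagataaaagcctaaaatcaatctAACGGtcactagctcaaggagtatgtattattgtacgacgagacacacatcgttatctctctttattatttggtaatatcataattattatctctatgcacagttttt
GSL10, chr3:2279917-2280166, minus strand: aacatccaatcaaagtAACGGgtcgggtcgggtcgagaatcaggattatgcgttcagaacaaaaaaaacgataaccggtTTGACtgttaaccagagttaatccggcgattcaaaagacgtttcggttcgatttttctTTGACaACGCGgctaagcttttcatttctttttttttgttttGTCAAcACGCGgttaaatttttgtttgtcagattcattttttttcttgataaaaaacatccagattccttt
None of these letters stood in the windows of GSL5, GSL6, GSL3 and GSL12, which says only that they are not in these windows. The window of GSL10 held 3 TTGAC matches, beginning 171, 113 and 71 bases before the start, 2 CGCGT matches at 107 and 65 bases, and 1 AACGG match at 234 bases. The window of GSL1 held 2 CGCGT matches at 230 and 227 bases, which overlap each other, 2 AACGG matches at 166 and 108 bases, and 1 CACGTG match at 217 bases. In GSL8, whose window reaches into a neighbouring tRNA gene, the W box, CAMTA and mitosis-specific cores were found once each. Over the 10 members, TTGAC occurred in 2, CGCGT in 3, AACGG in 6 and CACGTG in 2. Over 27443 upstream windows of the same length in the genome, they occurred in 44.9%, 6.87%, 20.6% and 6.49%.

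After 3 h of Al, most callose synthase transcripts were lower, 1 was higher, and 2 of the more abundant ones were not called. With limma on log2(FPKM + 1), 9 of the 10 members had enough expression to be tested, which took 3 samples at or over 1 FPKM. GSL5 rose, and GSL6, GSL3, GSL12, GSL1, GSL4 and GSL7 fell at an adjusted p under 0.05. Of all 18463 genes tested, 21.3% were called higher and 38.5% lower. The groups did not overlap in 8 of the 9 tested members, as in 66.3% of all tested genes. The calls of GSL12, GSL1, GSL4 and GSL7 were lost under a correction for transcript length, alone or with the replicate number as a block, for which the values are given with the length trend. The median log2 difference was -0.51 over the 9 tested members and -0.13 over all tested genes. Among 121 other tested genes of like transcript length, 89.3% were called lower and 1.65% higher, with a median of -0.54. The members as a set were thus not lower than other genes of their length. Scaling the samples by median ratios set the median of all genes to 0.00079 and turned the split of calls from 3933 higher and 7106 lower genes into 5397 higher and 4971 lower. For weakly expressed genes the added 1 makes a log2 difference smaller than the true change.

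**Figure D1:**
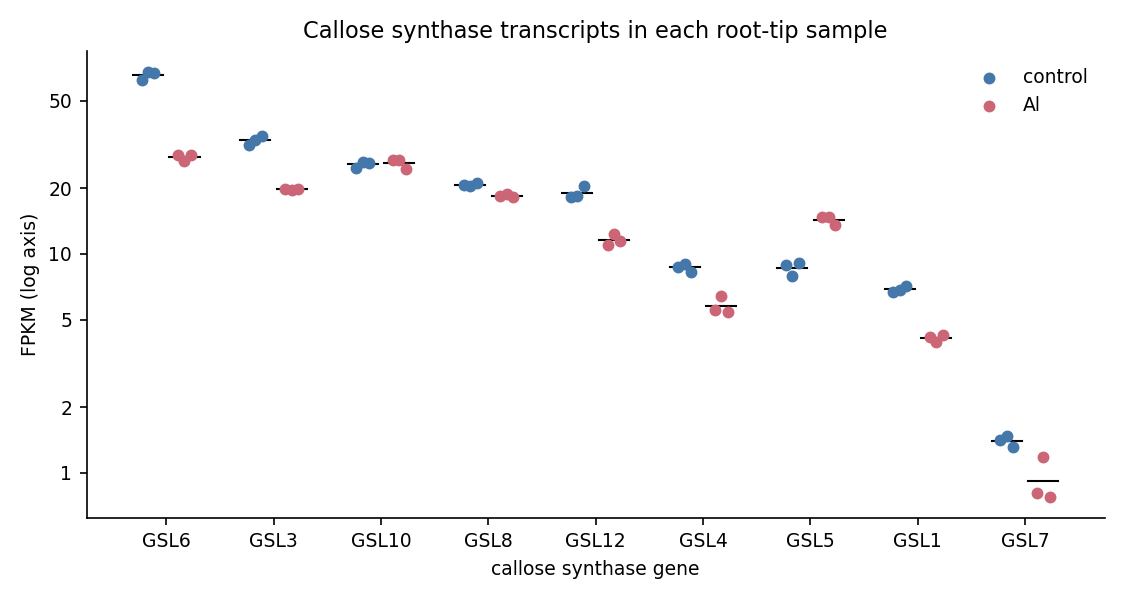
FPKM (log axis) of the 9 tested callose synthase genes in each of the 3 control and 3 Al samples, with a line at each group mean, ordered by the control mean. GSL6 fell from 65.8 to 27.7 FPKM, GSL5 rose from 8.64 to 14.3 FPKM, and the points of GSL10 overlap. GSL2, at 0.04 FPKM or less in every sample, is not drawn.

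GSL5 (also PMR4, powdery mildew resistant) makes the callose that is laid down at wounds and in the papillae that form under attacking fungi. With the values as deposited it was the only member called higher. Its FPKM was 8.92, 7.90 and 9.10 in the control samples and 14.77, 14.69 and 13.52 after Al. The lowest Al sample lay well above the highest control sample, and the means of 8.64 ± 0.647 and 14.3 ± 0.700 (SD, n = 3 each) differed 1.66-fold. The log2 difference was 0.67 ± 0.083 (SE) with a limma adjusted p of 0.000137. It kept its direction and its call under all 19 other settings tried, with values from 0.61 to 1.09. An estimated 1039 to 1938 fragments per sample stood behind these values.

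GSL1, the closest relative of GSL5 and, with it, needed for pollen development, went the other way. It was at 6.69, 6.83 and 7.13 FPKM in the control samples and at 4.16, 3.98 and 4.26 FPKM after Al. The groups did not overlap, and the log2 difference was -0.62 ± 0.084 (SE, limma adjusted p = 0.000231). GSL5 exceeded GSL1 1.26-fold in the control samples and 3.47-fold after Al on the FPKM scale, and the ratios of the groups did not overlap (exact permutation p = 0.1, the smallest that 3 samples against 3 allow, and 0.1 after adjustment over the 4 ratios compared).

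GSL6 (CALS1), first described as a synthase of the cell plate, was the most abundant member in the control samples and fell most. Its FPKM was 62.36, 67.73 and 67.19 in the control samples and 28.25, 26.63 and 28.18 after Al. Each Al sample was less than every control sample by a wide margin, and the mean went from 65.8 ± 2.96 to 27.7 ± 0.916 FPKM (SD, n = 3 each), a change of -57.9%. The log2 difference was -1.22 ± 0.063 (SE, limma adjusted p = 4.85e-07), lower than that of all but 1.60% of the tested genes. It stayed between -1.29 and -0.77 and remained called under all 19 other settings.

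GSL3, the closest relative of GSL6, also fell, with a smaller difference. It was at 31.53, 33.00 and 34.66 FPKM in the control samples and at 19.88, 19.49 and 19.72 FPKM after Al. The Al samples were nearly equal and lay below all control samples (log2 difference -0.72 ± 0.064 SE, limma adjusted p = 1.77e-05). GSL6 was 1.99 times as high as GSL3 in the control samples and 1.41 times as high after Al, again without overlap (exact permutation p = 0.1). For both genes a further annotated gene overlaps the locus, AT1G04393 on the strand of GSL6 and AT2G08500 opposite to GSL3. Neither is listed in the table, and since the counting rules are not given in the sources used here, fragments of these overlapping genes cannot be told apart from those of GSL6 and GSL3.

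Markers of dividing cells were lower in the same Al samples. Of 10 cytokinesis and mitosis genes 9 were called lower and none higher, with a median log2 difference of -0.72. Over all tested genes, 38.5% were called lower and 21.3% higher. KNOLLE (SYP111), the syntaxin of the cell plate, went from 9.68 to 2.99 FPKM, whereas KEULE (KEU), its partner in membrane fusion, was at 63.2 and 62.2 FPKM and was not called. The summed FPKM of the 10 genes ranged from 115.3 to 126.5 in the control samples and from 85.8 to 99.6 after Al, and none was at 0. Their part in the lower levels of GSL6 and other members was not tested.

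GSL8 (AT2G36850, chr2:15454671-15469964, minus strand), also CHORUS, and GSL10 (AT3G07160, chr3:2264862-2279916, minus strand), also CALS9, are both needed for the asymmetric division of pollen, and GSL8 also for cytokinesis in seedlings and for control of plasmodesmata. GSL8 was at 20.62, 20.53 and 21.04 FPKM in the control samples and at 18.41, 18.81 and 18.23 FPKM after Al. The groups did not overlap, but the difference of -0.16 ± 0.062 on the log2 scale (SE) missed the threshold with a limma adjusted p of 0.0535. An annotated gene on the opposite strand, AT2G36854, overlaps GSL8 and is not listed in the table. GSL10 was at 24.68, 26.33 and 26.01 FPKM in the control samples and at 26.83, 26.92 and 24.40 FPKM after Al. Its groups overlapped, and the log2 difference was 0.019 ± 0.068 (SE, limma adjusted p = 0.822). The sign of GSL10 depended on the scaling, at 0.16 with median-ratio scaling (adjusted p = 0.0491) and -0.046 with TPM scaling (adjusted p = 0.602). GSL8 was called lower with TPM scaling, at -0.23 and an adjusted p of 0.0157, and without the filter on low values, at -0.16 and an adjusted p of 0.0116. Either way 7 members were called lower.

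GSL12 (AT5G13000, chr5:4110171-4121489, minus strand), known as CALS3, makes callose at plasmodesmata of the root, where overactive forms of it block movement between cells. It fell from 18.11, 18.44 and 20.39 FPKM to 10.93, 12.28 and 11.45 FPKM. No Al sample reached the lowest control sample, and the log2 difference was -0.67 ± 0.079 (SE, limma adjusted p = 0.000101). GSL4 (AT3G14570, chr3:4892410-4902880, plus strand) was at 8.75, 9.03 and 8.30 FPKM in the control samples and at 5.55, 6.45 and 5.42 FPKM after Al. The groups of GSL4 were also apart, by -0.51 ± 0.091 on the log2 scale (SE, limma adjusted p = 0.00114).

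The 2 members with the lowest levels act in specialised cells. GSL7 (AT1G06490, chr1:1978378-1989409, plus strand), or CALS7, makes the callose of sieve plates in the phloem. It was at 1.42, 1.47 and 1.32 FPKM in the control samples and at 0.81, 1.18 and 0.78 FPKM after Al, with an estimated 110 to 210 fragments per sample. Although the groups did not overlap, the call was a weak one, at -0.33 ± 0.12 on the log2 scale (SE, limma adjusted p = 0.0374). It was lost without control 1, 2 or 3 or without Al 1 or 3, where the adjusted p ranged from 0.0573 to 0.106, with the replicate number as a block (adjusted p = 0.0577) and with median-ratio scaling (adjusted p = 0.0883). Of 9 phloem markers tested, 3 were called lower, 1 higher and 5 were not called, against 38.5% lower and 21.3% higher over all tested genes. With median-ratio scaling 2 were called lower, as the call of APL was lost (adjusted p = 0.0972). That call was also lost without control 2 or 3 or without Al 3, with adjusted p from 0.0737 to 0.0897. The sum over all 11 listed phloem genes ranged from 95.5 to 99.9 FPKM in the control samples and from 76.2 to 88.9 FPKM after Al. PP2-A1, a lectin of phloem companion cells and sieve elements, went from 17.6 to 8.76 FPKM, while SUC2, the sucrose carrier of companion cells, was at 30.4 and 30.0 FPKM and was not called. Their part in the GSL7 value was not tested.

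GSL2 (AT2G13680, chr2:5694381-5706442, plus strand), or CALS5, builds the callose wall around developing pollen. It was at 0.04, 0.01 and 0.01 FPKM in the control samples and at 0, 0.02 and 0.01 FPKM after Al. These values stand for at most an estimated 5.43 fragments in a sample, where 3 fragments would give 0.0220 to 0.0223 FPKM, so no change of GSL2 was detectable at this depth.

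Long transcripts as a whole were lower after Al in this table. The median log2 difference was 0.028 in genes of 500 to 1000 bases, -0.18 in those of 2000 to 2500 bases, and -0.53 in those of 5500 to 7000 bases, which include all tested members. Of 121 other tested genes in this last range, 108 were called lower (89.3%) and 2 higher (1.65%), with quartiles of -0.68 and -0.40. GSL6 lay below all 121 of them. GSL3 lay just below the lower quartile, with 18.2% of the 121 genes lower still. GSL12, GSL1 and GSL4 lay between the quartiles, with 25.6%, 32.2% and 54.5% of the 121 genes lower than the member. Higher than most were GSL7, GSL8 and GSL10, with 84.3%, 90.9% and 94.2% of the 121 genes below them, and GSL5 with 98.3%. The place of GSL7, which was weakly expressed, depends on the added 1. With a pseudocount of 0.1 its log2 difference was -0.575, a value between the quartiles given above for a pseudocount of 1.

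**Figure D2:**
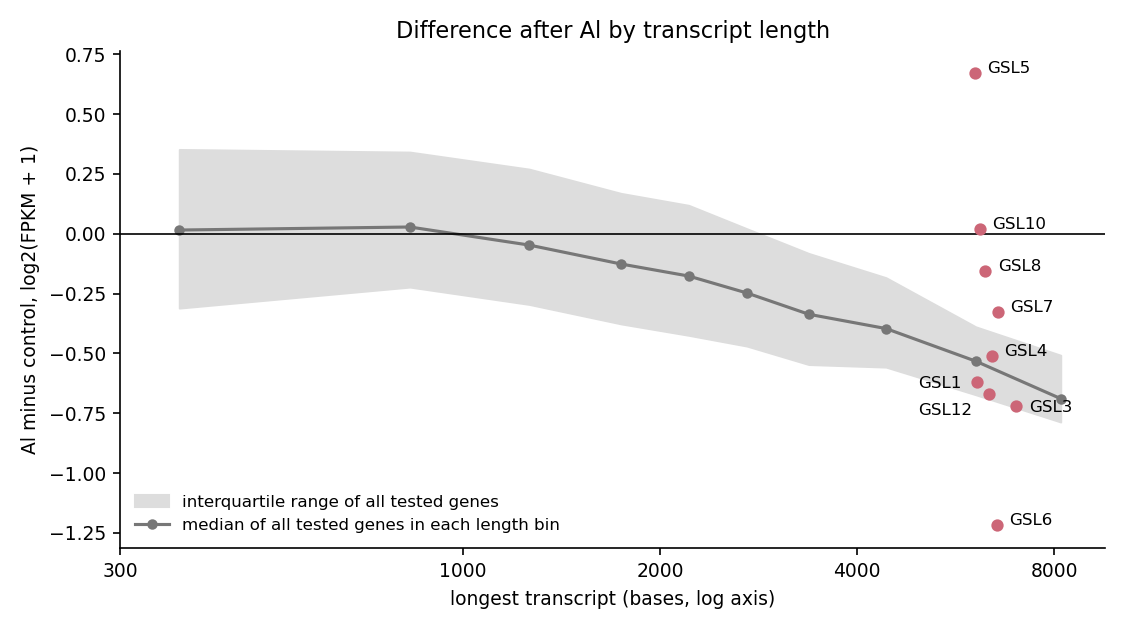
Log2 difference, Al minus control, on the log2(FPKM + 1) scale against the length of the longest transcript (log axis). The grey line and band give the median and the interquartile range of all 18463 tested genes in 10 length bins, and the red points are the 9 tested callose synthases. The line falls from 0.028 at 500 to 1000 bases to -0.53 at 5500 to 7000 bases, with GSL6 below the band and GSL5 above it.

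When the trend of the log2 differences with transcript length was taken out by a loess fit, the picture of the family changed in part. GSL5 stayed higher, at 1.09 ± 0.081 (SE, limma adjusted p = 5.16e-06). GSL6 and GSL3 stayed lower, at -0.77 ± 0.062 (adjusted p = 9.05e-06) and -0.25 ± 0.063 (adjusted p = 0.00861). The calls of these 3 genes thus did not turn on the correction. It left the mean difference over all tested genes in place, and their median was still -0.13. Corrected differences are to be read against that median, from which GSL3 stood less far apart than from no change. GSL12 was at -0.23 with an adjusted p of 0.0271, which became 0.0572 with the replicate number as a block. GSL1 (-0.20, adjusted p = 0.0627) and GSL4 (-0.073, adjusted p = 0.506) were no longer called, and GSL7 changed sign without a call (0.12, adjusted p = 0.400). The correction of GSL7 starts from a difference that the added 1 makes smaller, so its change of sign is not firm. GSL8 and GSL10 were now called higher, at 0.27 ± 0.061 (adjusted p = 0.00408) and 0.44 ± 0.067 (adjusted p = 0.000465). Whether the trend with length belongs to the RNA of the roots or to the libraries was not tested.

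**Figure D3:**
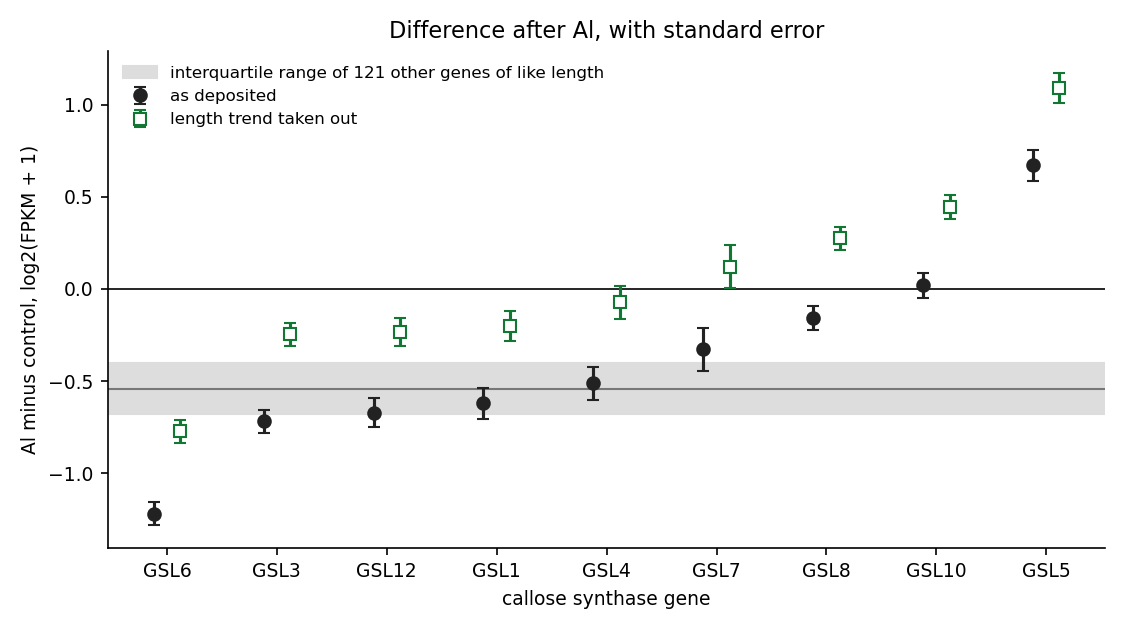
Log2 difference, Al minus control, with its standard error for the 9 tested callose synthases, from values as deposited (filled circles) and after removal of the length trend (open squares). The grey band is the interquartile range of 121 other genes of like length (-0.68 to -0.40) and the grey line their median (-0.54). GSL5 is above 0 and GSL6 below 0 in both.

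The summed expression of the 10 members, which are of like length, was lower after Al in every sample. It was 183.1, 191.3 and 195.2 FPKM in the control samples and 129.6, 130.5 and 126.0 FPKM after Al. The groups did not overlap, with a change of -32.2% between means (exact permutation p = 0.1). A fall was usual for transcripts of this length. Of 121 other tested genes of like length, 108 were called lower, and their median log2 difference was -0.54. Without GSL6, the sum went from 124.1 ± 3.63 to 101.0 ± 3.03 FPKM (SD, n = 3 each), a change of -18.6% (exact permutation p = 0.1). The order of the levels changed as well. In the control samples GSL6 led before GSL3, GSL10, GSL8, GSL12, GSL4, GSL5, GSL1, GSL7 and GSL2, and only the ranges of GSL4 and GSL5 overlapped between neighbours. After Al the ranges of GSL6 (26.6 to 28.3 FPKM) and GSL10 (24.4 to 26.9 FPKM) overlapped at the top, followed by GSL3, GSL8 and GSL5, now ahead of GSL12 and GSL4.

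As a share of the summed FPKM, GSL6 went from 34.6% ± 0.700 to 21.5% ± 1.01 (SD, n = 3 each), and GSL3 from 17.4% ± 0.304 to 15.3% ± 0.358. GSL5 went from 4.55% ± 0.382 to 11.1% ± 0.351. GSL10 and GSL8, whose FPKM was not called, took larger shares of the smaller sum, from 13.5% to 20.2% and from 10.9% to 14.4%. The shares of GSL12 and GSL1 were lower, by -1.01 and -0.41 percentage points, and those of GSL4, GSL7 and GSL2 overlapped between the groups. For the 7 shares without overlap the exact permutation p was 0.1, and 0.143 after adjustment over the 10 members, so none could pass the threshold in this design. A share of the sum moves with the other members and is no measure of a gene on its own.

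**Figure D4:**
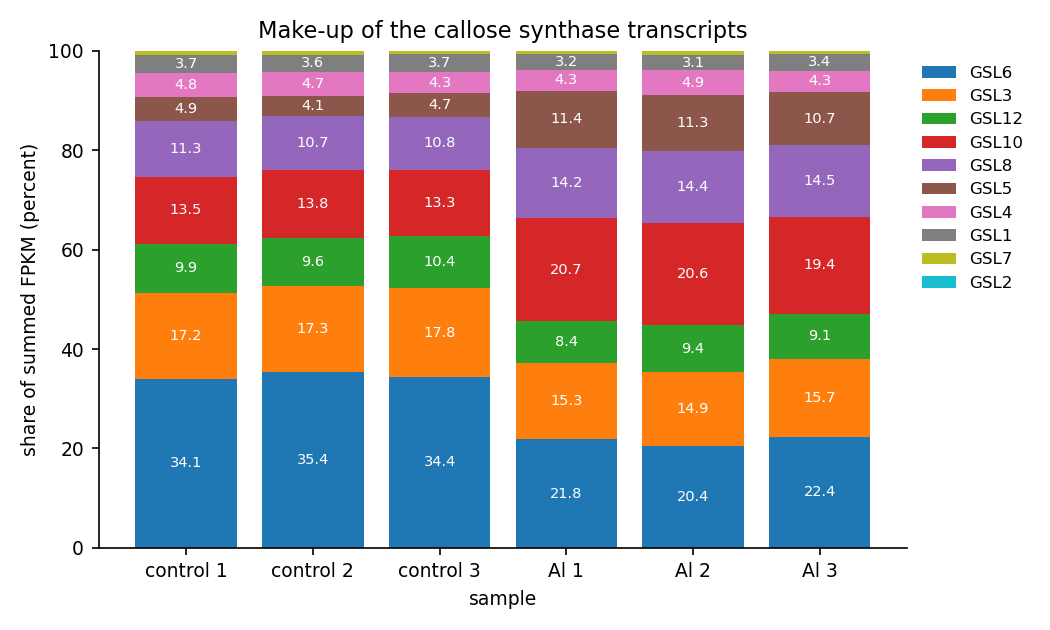
Share of each of the 10 callose synthase genes in their summed FPKM (percent) in each sample. GSL6 makes up 34.1 to 35.4% of the sum in the control samples and 20.4 to 22.4% after Al, and GSL5 goes from 4.13 to 4.87% up to 10.7 to 11.4%.

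Genes that act with callose synthases were taken as 5 lists. Beside their counts stand the shares over all 18463 tested genes, of which 21.3% were called higher and 38.5% lower. In the list of synthase partners and plasmodesmal callose signalling, 7 of 8 tested genes rose and 1 fell, with a median log2 difference of 0.58. RABA4C, a small GTPase that binds the GSL5 protein and promotes callose deposition at fungal entry sites, was at 11.75, 10.97 and 10.88 FPKM in the control samples and at 35.92, 36.98 and 32.86 FPKM after Al. Like GSL5 it was higher in all 3 Al samples, by 1.57 ± 0.073 on the log2 scale (SE, limma adjusted p = 2.40e-07). CML41, a calmodulin-like protein of plasmodesmata that promotes callose there, rose from 1.54, 1.69 and 1.5 FPKM to 23.14, 25.48 and 23.64 FPKM, a log2 difference of 3.28 (limma adjusted p = 7.32e-09). The chitin receptors LYM2 and LYK4, which close plasmodesmata, rose by 0.88 and 0.48 on the log2 scale.

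ROP1, a small GTPase of the family whose members were found with the cell-plate synthase, rose by 0.69 on the log2 scale from a low level (0.53 to 1.47 FPKM). The receptor kinase genes AT3G02880 and CRK2 rose by 0.35 and 0.27. The call of CRK2 was lost without control 1 or 3 and without Al 1 or 2, with adjusted p from 0.0547 to 0.109, and also with TPM scaling (0.0946), the replicate block (0.0617) and no filter on low values (0.0606). With TPM scaling or the block, 6 of the 8 genes of the list were called higher. IMK2, another receptor-like kinase, fell from 8.63 ± 0.740 to 1.79 ± 0.241 FPKM (SD, n = 3 each), a log2 difference of -1.79 (limma adjusted p = 1.19e-06). UGT75B1, the glucosyltransferase found with the cell-plate synthase, reached at most 0.74 FPKM in any sample and was not tested.

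Among plasmodesmata-located proteins (PDLP), receptor-like proteins of which PDLP5 promotes callose at plasmodesmata, 4 of 8 genes rose and 2 fell. Of the falls, 1 was left with median-ratio scaling, quantile normalization, length correction or the replicate block, and PDLP8, with a log2 difference of -0.24 and a limma adjusted p of 0.0403, reached 0.285 at most over the alternatives. PDLP5 (HWI1) was at 45.11, 46.23 and 36.10 FPKM in the control samples and at 83.39, 79.12 and 101.29 FPKM after Al. This is a log2 difference of 1.03 ± 0.12 (SE, limma adjusted p = 7.35e-05), and the groups were far apart. PDLP1 and PDLP7 rose by 1.18 and 1.04, and PDLP2 fell by 0.86 on the log2 scale. Of the callose-binding proteins of plasmodesmata (PDCB), which bind callose in the neck of the channel, 3 of 4 tested genes fell and none rose. PDCB1 went from 34.1 ± 1.52 to 21.6 ± 1.93 FPKM (log2 difference -0.64, limma adjusted p = 0.000123), and PDCB3 and PDCB5 fell by 0.67 and 0.41. PDCB4, at 43.5 and 44.4 FPKM, was not called. With median-ratio scaling PDCB5 was no longer called and PDCB4 was called higher. The call of PDCB5 was also lost without control 1 (adjusted p = 0.0665) and without Al 1 (adjusted p = 0.0633).

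Of 5 tested genes for β-1,3-glucanases, enzymes of the kind that breaks callose down, or for related enzymes, 1 rose and 3 fell. The sum over the 6 genes of this list with values went the other way. The sum ranged from 65.4 to 68.2 FPKM in the control samples and from 75.5 to 81.8 FPKM after Al. Its direction came from AT2G27500 alone, as every other tested gene of the list had a lower mean after Al. BG_PPAP, the glucanase of plasmodesmata, was at 21.93, 22.65 and 21.29 FPKM in the control samples and at 10.49, 11.35 and 11.02 FPKM after Al, with no overlap. The glucanase-like gene AT2G27500 rose in all Al samples, from 18.98, 19.44 and 19.02 FPKM to 51.37, 47.77 and 46.29 FPKM. The limma log2 differences were -0.94 ± 0.069 (SE, adjusted p = 5.34e-06) and 1.30 ± 0.064 (SE, adjusted p = 3.68e-07). AT3G13560 fell by 0.41 on the log2 scale, a call that was lost without control 2 and without Al 1 or 3 (adjusted p from 0.0688 to 0.116), with length correction (0.112), median-ratio scaling (0.101), quantile normalization (0.0818) and no filter on low values (0.0810). With length correction, median-ratio scaling or quantile normalization, 2 of the 5 genes were called lower. In the supply of UDP-glucose, 6 of 9 tested genes fell and none rose. The cytosolic invertases CINV1 and CINV2, which together are needed for root growth, fell by 0.54 and 0.62 on the log2 scale, and the sucrose synthase SUS4 by 0.43. With the length trend taken out or with median-ratio scaling 3 of the 9 were called lower. The call of SUS4 was also lost without control 1, control 2 or Al 1, with adjusted p from 0.0738 to 0.0957.

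**Figure D5:**
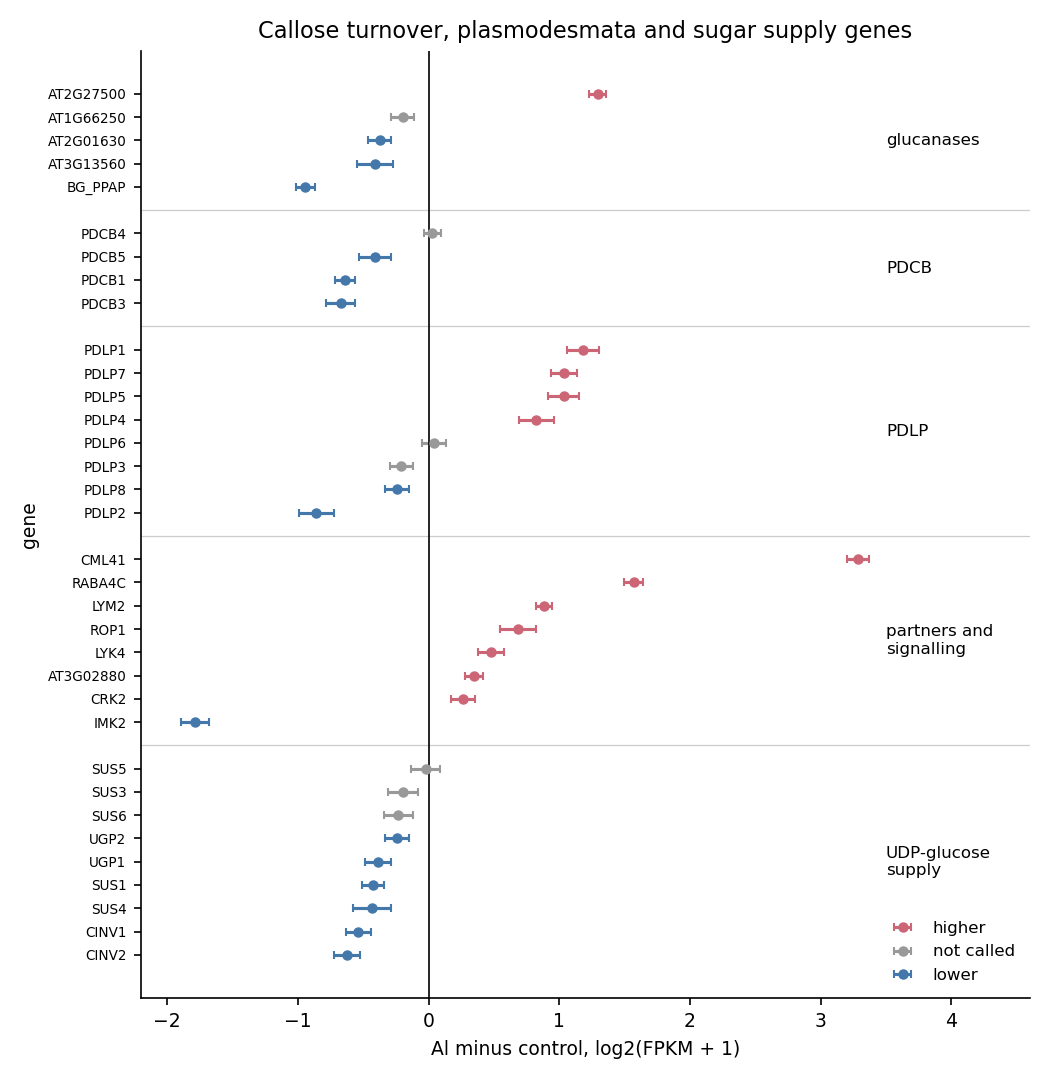
Log2 difference, Al minus control, with its standard error for the tested genes of 5 lists around callose: glucanases, callose-binding proteins (PDCB), plasmodesmata-located proteins (PDLP), synthase partners and signalling, and supply of UDP-glucose. Colour gives the limma call. Rises stand mainly in the partner and PDLP lists (7 of 8 and 4 of 8), and no gene of the PDCB and UDP-glucose lists rose. These 2 lists are short, with 4 and 9 tested genes. Over all tested genes, 21.3% were called higher and 38.5% lower.

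A further 2 callose synthase loci stand in the table outside the 10. GSL9 (AT5G36870) was at 2.10, 1.94 and 2.51 FPKM in the control samples and at 1.72, 1.34 and 1.02 FPKM after Al, and GSL11 (AT3G59100), the nearest relative of GSL7, at 22.78, 23.25 and 24.66 FPKM and at 17.91, 19.77 and 15.76 FPKM. Both were called lower, with log2 differences of -0.44 (limma adjusted p = 0.0196) and -0.39 (adjusted p = 0.00424), and neither was called once the length trend was taken out. The call of GSL9 was also lost without control 3 (adjusted p = 0.0654) and without Al 3 (adjusted p = 0.0614). With them, the sum over 12 callose synthases changed by -31.4%.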

How the data were processed

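RNA of the 3 control and 3 Al-treated WT samples was sequenced at the Beijing Genomics Institute after random-primed cDNA synthesis, and the authors deposited FPKM values per gene and sample for 24379 genes. The aligner, counting tool and annotation are not given in the sources used here. The deposited table also holds the authors' log2 ratio, p-value and q-value for Al against control, which were not used. Its 6 further per-sample columns repeat the FPKM columns with equal values and were not used either. Groups were taken from the labels. As FPKM are not counts, no count test was run.

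FPKM were tested as log2(FPKM + 1), a pseudocount of 1, for the 18463 genes that reached 1 FPKM in 3 or more samples, with limma 3.58.1 in R 4.3.3 (mean-variance trend, two-sided, Benjamini-Hochberg over all tested genes, called at 0.05), all 6 samples in the fit. The step was checked on simulated data. Sums, shares and ratios were set against each other by an exact permutation test (two-sided, smallest p 0.1). Depth was estimated from the spacing of low values, of which 86.6 to 88.8% came out within 0.15 of a whole fragment. It covers counting error only. Coordinates, upstream sequences and coding sequences are from the RefSeq annotation of TAIR10.1. Starts and ends were equal for 23857 of 24174 shared genes. Proteins were aligned with Biopython 1.88 in Python 3.11.15.

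The members and all lists were chosen with earlier results of these data known. Named were all members, GSL9 and GSL11, up to 3 called genes with the largest differences from each list, all tested synthase partners, and ALMT1. KEU, SUC2, SHR, SCR, WOX5, PDCB4, PDLP2, PDLP8, MYB80 and UGT75B1, which this rule does not give, were added after their values were seen. Alternatives were a pseudocount of 0.1, other filters, thresholds and scalings, no mean-variance trend, corrections for length and GC content (loess, span 0.3), a replicate block, and each sample left out in turn.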

Additional observations from a re-analysis of the deposited data

How the results depend on the processing

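GSL5, GSL6 and GSL3 kept their direction and their call under all 19 alternatives, GSL12 under 18, and GSL1 and GSL4 under 17. Correction for transcript length gave 3 members called higher and 3 lower, and 2 lower with the replicate block added, while median-ratio scaling gave 2 higher. Signs changed under length correction for GSL7 (0.12), GSL8 (0.27) and GSL11 (0.053), with and without the replicate block, and for GSL10 under TPM scaling (-0.046) and without control 1 (-0.0077), Al 1 (-0.0018) or Al 2 (-0.0041), with 0.064 the highest of its values with 1 sample left out. A minimum log2 difference of 0.5 left 2409 genes called higher and 3218 lower. The replicate numbers of the labels did not pair the samples (correlations of same-numbered deviations -0.25, -0.037 and -0.22). With them as a block, 3648 genes were called higher and 6319 lower, and of the members 1 higher and 5 lower. Leaving out 1 sample at a time gave 5 to 6 members called lower and 1 higher in each case. The difference of the summed FPKM of the 10 members was -44.9 with median-ratio scaling. In TPM it was -103, which is another unit and cannot be set beside the FPKM value. Depth limits GSL2 and, at about 110 to 210 estimated fragments, GSL7. The causes of these changes were not tested.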

Other observations

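Markers of other tissues gave further values beside the callose synthases. LAP6, a polyketide synthase of the pollen wall pathway that was set as a tapetum marker, was at 9.27, 9.09 and 10.04 FPKM in control roots and at 5.96, 5.60 and 5.78 FPKM after Al (limma adjusted p = 0.000187), and MYB80, the other listed tapetum gene in the table, at 0.25, 0.39 and 0.10 FPKM and at 0, 0.20 and 0.10 FPKM. A further 2 listed tapetum and pollen genes are not in the table used here. The 4 root hair genes were all called lower, among them EXPA7 (17.7 to 5.06 FPKM) and RSL4 (7.04 to 2.57 FPKM), and their summed FPKM ranged from 36.6 to 45.3 in the control samples and from 13.4 to 16.3 after Al. Over all tested genes, 38.5% were called lower. BRX, a gene of early phloem, went from 1.39 to 2.23 FPKM and was called higher.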
